A study of Gallus gallus with 4 samples.

Results

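Troponins and tropomyosins are the calcium switch of the muscle thin filament. Tropomyosin lies along the actin strand, and the troponin complex sits on it: troponin C binds calcium, troponin I holds contraction off at rest, and troponin T ties the complex to tropomyosin. Each part comes from several genes that differ between fast fibres, slow fibres and heart, and the pectoralis of chickens is a fast muscle. In chicken embryos the breast muscle also makes cardiac-type troponin T and beta-tropomyosin, and these are known to decline there as the muscle matures.

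The genes described are 10 isoforms, TNNT2, TNNT3, TNNI1, TNNI2, TNNC1, TNNC2, TPM1, TPM2, TPM3 and TPM4, chosen by their symbols out of 16533 distinct gene names or identifiers in the table. All 10 had a row, on 8 chromosomes, and TPM3 had 2 rows, so the isoforms filled 11 rows. They were measured by RNA sequencing in the breast muscle of 28-day-old Isfahani chickens, a native Iranian breed, and of Ross 708 broilers, a commercial line bred for meat. The labels give 2 pooled libraries for each breed, each an equal mix of RNA from 3 birds, and give no treatment, genetic change or sex; nothing in them says that the pools came from separate flocks. The deposited values are FPKM, fragments per length of transcript and per library size, with 1 value per breed and row, so no value below has an SD. The table names its columns Native and Commercial; the former matches the Isfahani label and the latter was read as Ross 708, the remaining breed. The log2 ratio adds 1 FPKM to both values before dividing Ross 708 by Isfahani, and a positive one means a higher level in Ross 708. A gene is called where the q-value in the authors' deposited table was at or under 0.05.

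The table held 18973 rows, of which 11626 had been tested by the authors (status OK) and 7307 had been left untested for low signal (NOTEST). A further 39 rows had status HIDATA, which Cuffdiff gives to a locus with too many fragments to process, and 1 had FAIL. Sequencing depth is unknown, because no counts were used here. The tissue label was set beside fibre-type genes, which was possible only in part. Of the fast fibre genes on a list of 24, 12 had no row and 7 were tested, and LDHA, MYH1C, MYH1E, MYH1F and MYL1 had status HIDATA. Of 20 genes with a row on the slow and cardiac-type list, 17 were tested, from 0.119 FPKM (CSRP3) to 973 FPKM (LDB3) in Isfahani. Membership of that list does not show that a gene is confined to slow fibres or heart. The myosin genes MYH7, MYL2 and MYL3 were left untested by the authors, at most at 0.204 FPKM in either breed.

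Of the 6 isoforms with a valid estimate, 3 were called as higher in Ross 708 and 0 as higher in Isfahani. They were cardiac troponin T (TNNT2), slow troponin I (TNNI1) and beta-tropomyosin (TPM2), at 6.86, 3.36 and 3.20 times the Isfahani FPKM. Slow and cardiac troponin C (TNNC1), TPM3 and TPM4 were not called. Of all tested rows 5.21% were called, 3.07% with Ross 708 higher and 2.14% with Isfahani higher. At an unadjusted p-value under 0.05, Ross 708 was higher for 5 isoforms (background 9.06% of rows) and Isfahani for 0 (background 7.96%). The other 4 isoforms, the fast set of TNNT3, TNNI2, TNNC2 and TPM1, had status HIDATA and have no ratio.

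**Figure D1:**
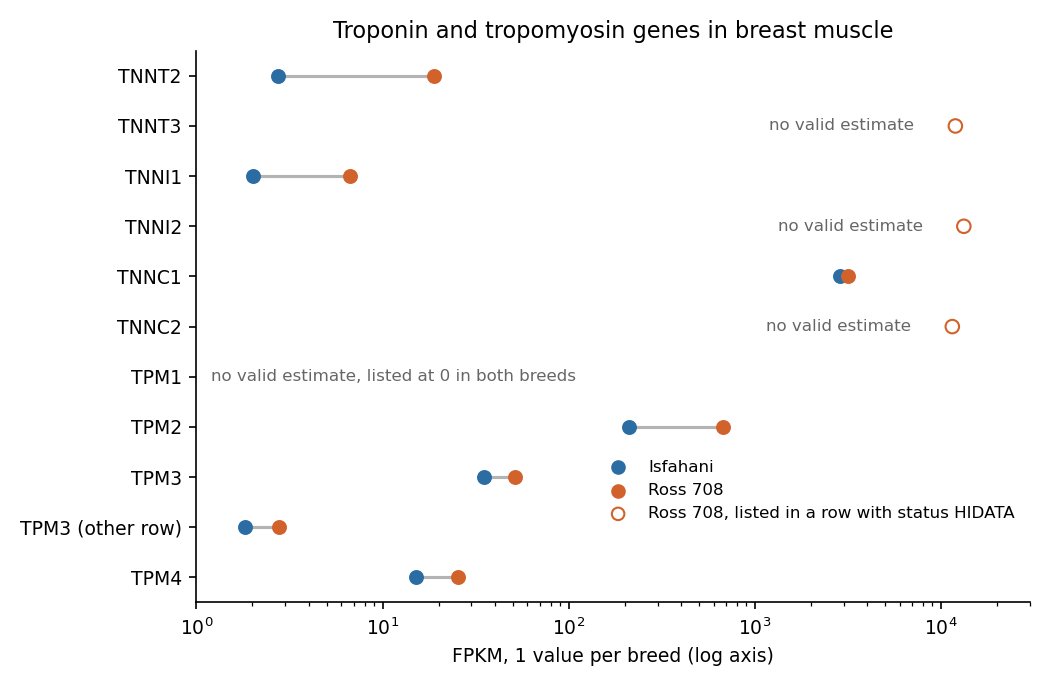
FPKM of each isoform row on a log axis, with 1 point per breed joined by a line, and open circles for the Ross 708 value listed in rows that have no valid estimate. All 7 rows with an estimate lie further right in Ross 708, and TNNC1, at 2862 and 3156 FPKM, shows the narrowest gap.

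TNNT2 is the troponin T of heart and of embryonic skeletal muscle (galGal5 chromosome 26, 789139 to 799604). The Isfahani level was 2.76 FPKM and the Ross 708 level 18.9. The log2 ratio was 2.41, and 35 of the 11626 tested rows had a larger one. Its p-value of 5e-05 and q-value of 0.00245 are the smallest in the authors' deposited table, shared by 237 rows. TNNT2 was thus the isoform with the largest ratio of the 6 tested. It moved from above 28.2% of tested rows in Isfahani to above 75.5% in Ross 708.

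TNNI1, the inhibitory subunit of slow fibres, is its neighbour on chromosome 26 (774173 to 777490). Levels were 2.00 FPKM for Isfahani and 6.72 FPKM for Ross 708, and the log2 ratio was 1.36. The authors' deposited table gives it a p-value of 0.0007 and a q-value of 0.0194. TNNI1 was the lowest of the tested isoforms in both breeds and the call nearest to the threshold. With a stricter q-value threshold of 0.01 it was no longer called, nor when the deposited test statistic was read as a standard normal score.

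The TNNI1 and TNNT2 loci lie 11648 bases apart. The single row between them, ENSGALG00000000309, was left untested, at 0 FPKM in Isfahani and 0.0627 in Ross 708. No other row overlapped either locus. The fast genes are also neighbours, on chromosome 5, where troponin T comes first: TNNT3 (13389729 to 13416288) and TNNI2 (13473889 to 13478515) are 57600 bases apart with 3 rows between them. Of those rows, PRR33 was at 1381 FPKM in Isfahani and 1537 in Ross 708, and LSP1 at 46.9 and 96.0. Both are listed at the same locus, so the split of reads between them is uncertain. Neither was called; the authors' deposited table gave q = 0.909 for the former and q = 0.887 for the latter.

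**Figure D2:**
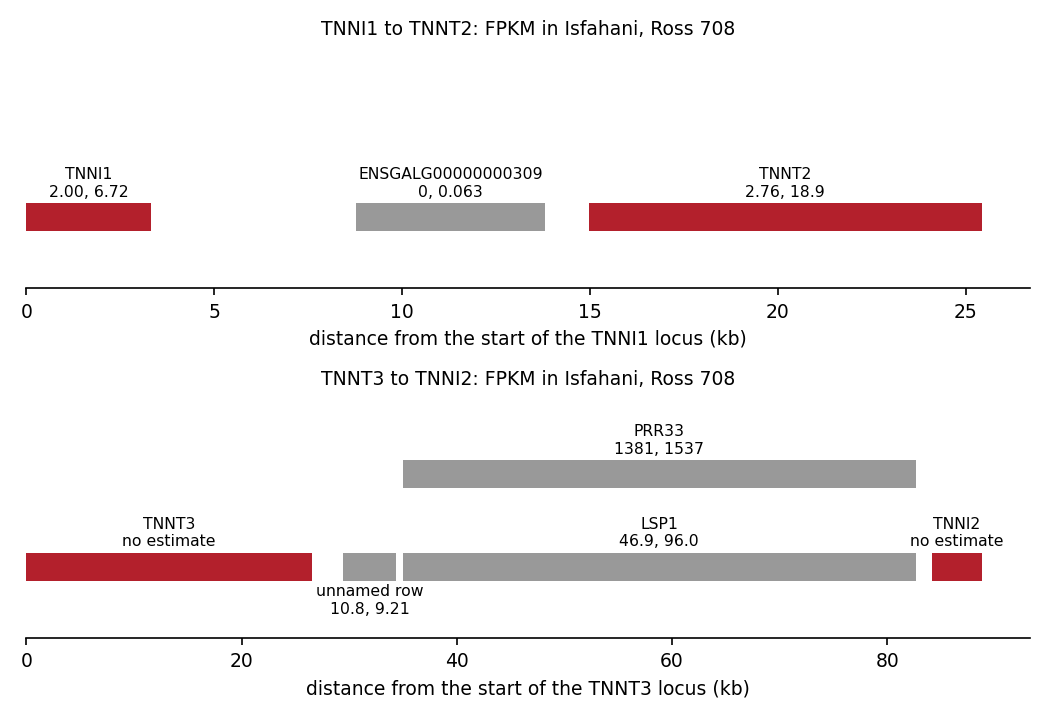
Loci between TNNI1 and TNNT2 and between TNNT3 and TNNI2, drawn to scale in kilobases from the start of the first gene. Each row carries the FPKM of Isfahani and Ross 708, except TNNT3 and TNNI2, which have status HIDATA and are marked as having no estimate. Both genes of the upper pair carry higher values in Ross 708 (2.00 and 6.72 for TNNI1, 2.76 and 18.9 for TNNT2), and the row between them is at or near 0.

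TNNC1 is the troponin C of heart and slow fibres (chromosome 12, 538818 to 544257). Its level was 2862 FPKM for Isfahani and 3156 FPKM for Ross 708. Only 26 tested rows were higher in Isfahani and 23 in Ross 708. Its log2 ratio of 0.14 was not called (p = 0.647 and q = 0.899 in the authors' deposited table). The level of TNNC1 was therefore far from those of the other slow and cardiac troponin genes. As FPKM is scaled by length, levels of genes can be set side by side: the TNNC1 level was 1039 times the TNNT2 level in Isfahani and 167 times in Ross 708. Against TNNI1 it was 1429 times as high in Isfahani and 469.5 times in Ross 708. Other genes on the slow and cardiac-type list, not all of them confined to those fibres, spanned a wide range. The light chain genes MYL2 (0.0777 and 0.204 FPKM) and MYL3 (0.0710 and 0.145 FPKM) were near 0, while CASQ2, a calsequestrin that stores calcium, was at 653 and 1086 FPKM. No other row overlapped the TNNC1 locus; the nearest, NISCH, was 959 bases away, at 10.8 and 9.45 FPKM.

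The fast troponins are the main set of an adult breast muscle, and none could be compared. TNNT3, fast troponin T, is listed at 0 for Isfahani and at 11956 FPKM for Ross 708. TNNI2, fast troponin I, is listed at 0 and 13272, and TNNC2, fast troponin C (chromosome 20, 10856322 to 10858120), at 0 and 11510.5. All 39 HIDATA rows, of which 22 are listed at the locus of CDC42SE1, are at 0 in Isfahani. Of the 39 rows, 29 are above 0 in Ross 708, so these zeros are not measurements of absence. In Ross 708 the 3 listed values rank 1, 3 and 4 among all 18973 rows, with LDHA, the muscle-type lactate dehydrogenase gene, at rank 2. They add up to 36739 FPKM, or 6.05% of all FPKM listed for Ross 708. These Ross 708 values are not valid estimates either, and 10 HIDATA rows are listed at 0 in Ross 708. The ranks and the share therefore describe listed numbers, not measured levels. For troponin T, I and C alike, 1 of 2 isoforms therefore has a valid estimate, and no share of slow against fast isoforms can be given in either breed.

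Tropomyosins differed in level more than in their order. TPM2, beta-tropomyosin (chromosome Z, 9066130 to 9077157), rose from 209.98 FPKM for Isfahani to 672 FPKM for Ross 708. The log2 ratio was 1.67, and the authors' deposited table gave p = 5e-05 and q = 0.00245. A larger ratio was found in 83 of the tested rows. TPM2 thus combined a high level with a large ratio: 353 tested rows were higher in Isfahani and 149 in Ross 708. The labels give no sex, so the sex of the birds behind the values of this chromosome Z gene is unknown. No row overlapped its locus, and the nearest, the talin gene TLN1, was 3129 bases away at 16.6 and 26.2 FPKM.

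TPM3, the slow alpha-tropomyosin, which also gives cytoskeletal forms in mammals, was on 2 rows at the same locus (chromosome 25, 1329526 to 1346126). The more abundant row was at 35.1 FPKM for Isfahani and 51.8 FPKM for Ross 708, with 0.55 as its log2 ratio; the authors' deposited table gave p = 0.0484 and q = 0.288. The other row was at 1.83 and 2.77 FPKM, with 0.41 as its log2 ratio and q = 0.883 by the authors' deposited table. Neither row was called, and because they overlap each other, the split of reads between them is uncertain. RefSeq also lists TPM3 as an older name of the beta-tropomyosin gene TPM2; in this table the loci keep them apart.

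TPM4, whose mammalian gene gives a cytoskeletal tropomyosin of many non-muscle cells (chromosome 28, 4195073 to 4203208), was at 15.0 FPKM for Isfahani and 25.5 FPKM for Ross 708. Its log2 ratio of 0.72 was not called (p = 0.0108 and q = 0.126 in the authors' deposited table). TPM1, the alpha-tropomyosin of fast fibres (chromosome 10, 3667601 to 3687521), is listed at 0 in both breeds with status HIDATA.

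Over the 4 tropomyosin rows with an estimate, the sum was 262 FPKM in Isfahani and 752 in Ross 708. TPM2 made up 80.2% of that sum in Isfahani and 89.4% in Ross 708, and 94.3% of the gain of 489.7 FPKM. The share of the more abundant TPM3 row went from 13.4% to 6.89% and that of TPM4 from 5.74% to 3.39%, although both had higher FPKM in Ross 708. These shares leave out TPM1, so they are not shares of all tropomyosin. TPM2 was at 5.98 times the TPM3 level in Isfahani and 12.97 times in Ross 708. TPM3 stood at 2.34 and 2.03 times the TPM4 level.

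**Figure D3:**
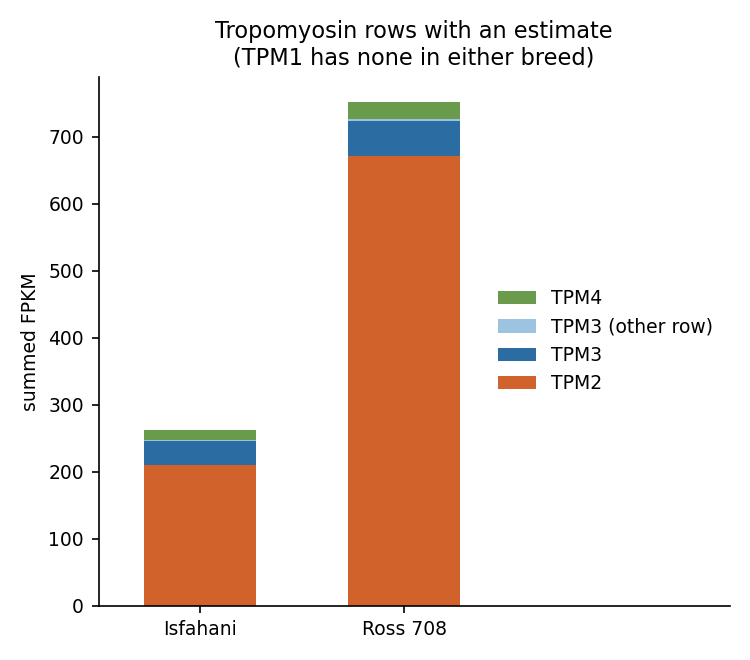
Summed FPKM of the 4 tropomyosin rows that have an estimate, stacked for each breed, with the axis starting at 0. The sum is 262 in Isfahani and 752 in Ross 708, and most of the taller bar is TPM2 (672 FPKM).

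The 6 isoforms had the same order of levels in both breeds, from TNNC1 through TPM2, TPM3, TPM4 and TNNT2 down to TNNI1. Neighbours in that order cannot be tested against a spread between pools. Closest in FPKM were TNNT2 and TNNI1 in Isfahani (2.76 and 2.00) and TPM4 and TNNT2 in Ross 708 (25.5 and 18.9). Their median log2 ratio was 1.04, against -0.034 over all tested rows, and all 6 ratios were above 0, as were 46.5% of all tested rows. With 6 genes the median turns on single members: it ran from 0.72 to 1.36 when each was left out in turn.

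The count of called isoforms was read under other rules beside the share of all rows that each rule calls. At a q-value threshold of 0.01, TNNT2 and TPM2 remained, 2 isoforms, where 1.74% of rows had Ross 708 higher and 0.989% Isfahani. At a threshold of 0.1 the 3 isoforms were called, against 4.32% and 3.18% of rows. The same 3 passed with a log2 ratio of at least 1 (1.92% and 1.17% of rows). They also passed when rows under 1 FPKM in either breed were dropped (2.79% and 2.13% of rows). With the test statistic read as a normal score, TNNT2 and TPM2 were left (0.907% and 0.389% of rows). No isoform was called in the direction of Isfahani by any of these rules, and none could be, as all 6 ratios were above 0. The threshold of 0.1 could only add calls, and the log2 ratios of the 3 called isoforms were already above 1.

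**Figure D4:**
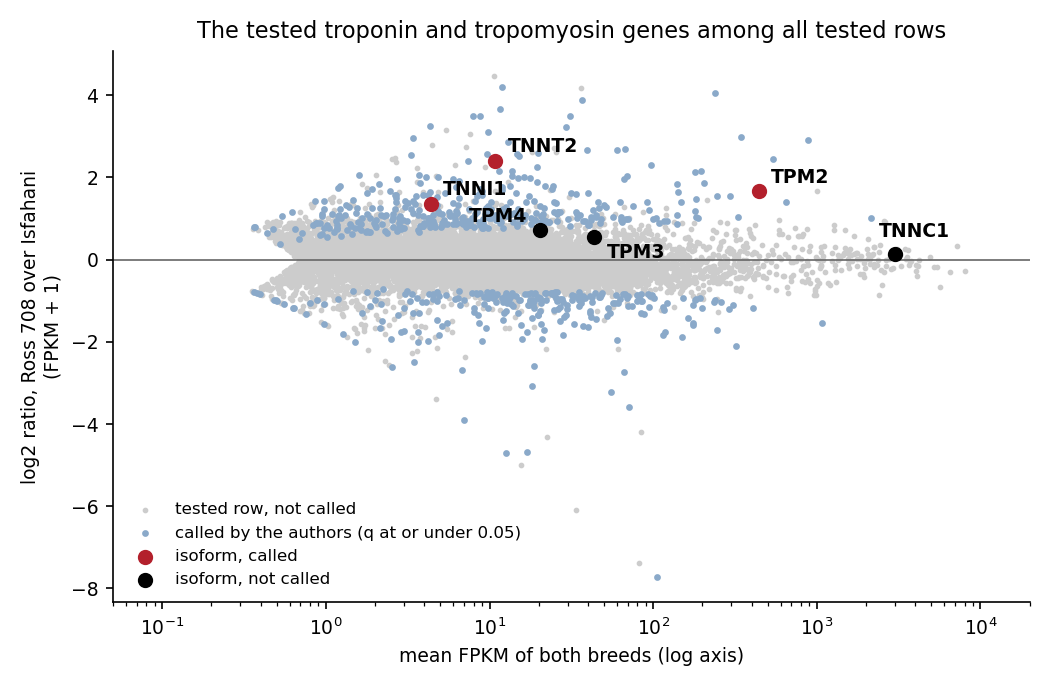
Mean FPKM of the breeds on a log axis against the log2 ratio of Ross 708 over Isfahani for all 11626 tested rows, with the 6 tested isoforms marked. TNNT2, TNNI1 and TPM2 (red) lie at ratios of 2.41, 1.36 and 1.67, while TPM3, TPM4 and TNNC1 (black) lie among the grey rows that were not called.

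Among other proteins of the thin filament, 25 of 34 listed genes were tested. Ross 708 was higher in all 5 called genes (background 3.07% of rows), and the median of the list was 0.21 as a log2 ratio. At an unadjusted p-value under 0.05, 10 of the tested genes were higher in Ross 708 (background 9.06% of rows) and 0 in Isfahani (background 7.96%). Cardiac actin, ACTC1, stood at 205.5 and 1564 FPKM, with 2.92 as its log2 ratio. LMOD2, a leiomodin that starts and lengthens actin filaments in heart and skeletal muscle, stood at 0.267 and 6.40 FPKM, with 2.55 as its log2 ratio. XIRP1, an actin-binding repeat protein (13.1 and 28.2 FPKM), ACTA2, smooth muscle actin (10.5 and 21.3 FPKM), and FHOD3, a formin that builds sarcomeric actin (3.63 and 7.43 FPKM), completed the calls. The authors' deposited table gave these 5 genes q-values from 0.00245 to 0.0174. The skeletal actin gene ACTA1 has status HIDATA and is listed at 0 in both breeds; it shares long stretches of sequence with ACTC1, so the level of the latter is uncertain. ACTA2 and FHOD3 overlap other rows and are less certain too.

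Outside the isoforms, 17 of 26 slow and cardiac-type genes were tested. Ross 708 was higher in all 5 called genes (background 3.07% of rows), and the median log2 ratio was 0.68. At an unadjusted p-value under 0.05, the counts were 6 genes for Ross 708 (background 9.06% of rows) and 2 for Isfahani (background 7.96%). ACTC1 was among the called genes. The others were MYBPC3, cardiac myosin-binding protein C (3.74 and 14.2 FPKM), MYOZ2, a calcineurin-binding protein of the Z-disc (5.09 and 18.6 FPKM), MYOM3, an M-band protein (0.316 and 1.86 FPKM), and ATP2A2, the calcium pump of slow fibres and heart (4.81 and 11.5 FPKM). Their q-values were at most 0.0044 in the authors' deposited table. Not every slow gene was higher in Ross 708. MYH7B, a slow-type myosin heavy chain gene in mammals, was at 2.92 and 0.663 FPKM, with -1.24 as its log2 ratio and no call (the authors' deposited table gave p = 0.0206 and q = 0.182). MYBPC1, the slow myosin-binding protein C, stood at 9.87 and 6.07 FPKM without a call (the authors' deposited table gave q = 0.168), and 11 of the 17 ratios were above 0.

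Of 24 fast fibre genes, 12 had no row and 7 were tested, and the median log2 ratio was 0.15. Called higher in Ross 708 (background 3.07% of rows) were 2 myosin heavy chain genes, MYH1D (10.3 and 38.4 FPKM) and MYH1A (80.04 and 154 FPKM). Reads can be shared among these near-identical heavy chain genes. Of 28 genes that deliver or remove the calcium that troponin C binds, 12 had no row and 15 were tested. Among the tested genes ATP2A2 alone was called, a share near the 5.21% called among all tested rows, and the median log2 ratio was 0.15.

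**Figure D5:**
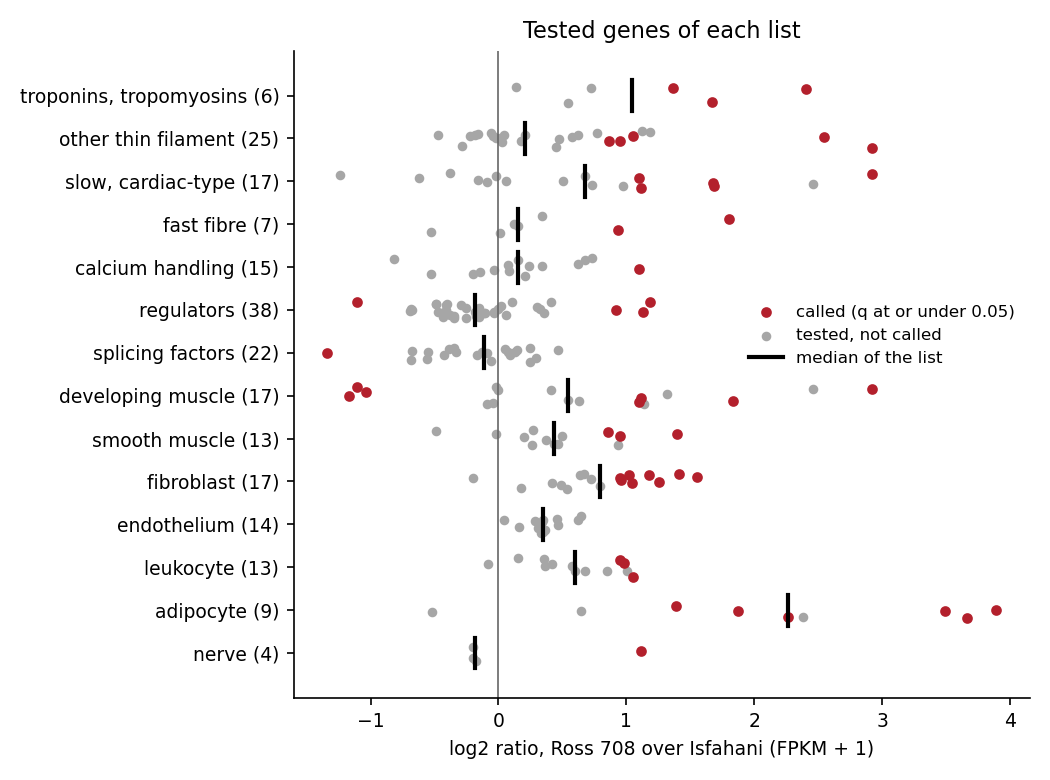
Log2 ratios of Ross 708 over Isfahani for the tested genes of each list (number in brackets), with called genes in red and the list's median as a black bar. Medians run from -0.18 for the nerve and regulator lists to 2.26 for adipocyte markers, and the bar of the troponins and tropomyosins is at 1.04.

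Of 38 tested genes known to act on troponin, tropomyosin and fibre-type genes, 34 were not called. Ross 708 was higher in 3 called genes, against 3.07% among all tested rows, and Isfahani in 1, against 2.14%, and the median log2 ratio was -0.18. By an unadjusted p-value under 0.05, 3 were higher in Ross 708 (background 9.06% of rows) and 5 in Isfahani (background 7.96%). MEF2B, a factor of the MEF2 family, stood at 3.43 and 9.11 FPKM, with 1.19 as its log2 ratio. NFATC2, which calcineurin activates, stood at 2.70 and 7.11 FPKM, with 1.13 as its log2 ratio. RCAN1, a calcineurin regulator that is itself a target of NFAT factors in mammals, stood at 14.8 and 28.9 FPKM, with 0.92 as its log2 ratio. MYOD1, the myogenic factor known to favour fast fibre genes, was the gene higher in Isfahani, at 238 and 110.4 FPKM and a log2 ratio of -1.10. These 4 genes had q-values from 0.00245 to 0.0145 in the authors' deposited table. At a q-value threshold of 0.01 neither RCAN1 nor MYOD1 was called. The other MEF2 genes were not called, MEF2A at 41.3 and 29.4 FPKM, MEF2C at 88.4 and 77.6, and MEF2D at 29.5 and 21.5. Nor were the other tested NFAT genes, NFATC1 at 44.1 and 26.9 FPKM (log2 ratio -0.69) and NFATC3 at 10.1 and 10.2. TEAD1 (18.7 and 17.2 FPKM), TEAD3 (23.6 and 21.0) and TEAD4 (26.5 and 16.1) were not called either.

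Troponin T and tropomyosin transcripts are heavily spliced, and the table gives 1 value per locus, so their splice forms were not measured here. Of 22 tested RNA-binding proteins known to act on such splicing, 1 was called, a share near the 5.21% called among all tested rows. By an unadjusted p-value under 0.05, 0 were higher in Ross 708 (background 9.06% of rows) and 4 in Isfahani (background 7.96%). RBM20, a splicing regulator of heart and skeletal muscle, was at 42.6 FPKM for Isfahani and 16.2 FPKM for Ross 708, with -1.34 as its log2 ratio and q = 0.00245 by the authors' deposited table. It overlaps another row of the same symbol and an unnamed row, which makes its level less certain, and when symbols on several rows were left out no splicing gene was called as higher in Isfahani. The main embryonic-to-adult switch factors were not called: MBNL1 stood at 151 and 119 FPKM and CELF1 at 11.9 and 12.3.

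Genes of developing and regenerating muscle were called in both directions, 4 of 17 higher in Ross 708 (background 3.07% of rows) and 3 higher in Isfahani (background 2.14%). Besides ACTC1, the former were NES, the intermediate filament nestin (0.362 and 3.85 FPKM), NCAM1, a cell adhesion molecule (16.01 and 35.9 FPKM), and CHRNG, the fetal subunit of the acetylcholine receptor (8.69 and 19.8 FPKM). IGFN1 (277 and 123 FPKM), MYOD1 and CRYAB, a small heat shock protein (318 and 154 FPKM), were the latter, with CRYAB named outside the rule to complete the count. The authors' deposited table gave these 7 genes q-values from 0.00245 to 0.0285. At a q-value threshold of 0.01 the 4 calls higher in Ross 708 became 3 (background 1.74% of rows) and the 3 calls higher in Isfahani became 1 (background 0.989%). NES overlaps another row.

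Several of the isoforms are also expressed outside muscle fibres, and in tissue pools a change in the number of cells of a type cannot be told apart from a change in RNA per cell. As background for the counts below, 3.07% of all tested rows were called higher in Ross 708. An unadjusted p-value under 0.05 in that direction was held by 9.06%. Smooth muscle and pericyte markers, which share TPM2 and TPM4 expression, had 3 of 13 tested genes called higher in Ross 708. Their summed level was 197 FPKM in Isfahani and 249.96 in Ross 708. Without SYNPO2, the most abundant of them (67.2 and 47.7 FPKM, not called), the sums were 130 and 202 FPKM. MYL9 stood at 13.2 and 36.4 FPKM and ACTA2 at 10.5 and 21.3, and both were called, while MYH11, the defining myosin of smooth muscle, stood at 1.90 and 2.75 FPKM without a call. Fibroblast markers had 8 of 17 called higher in Ross 708 and sums of 2348 and 4095 FPKM, with COL1A1 listed at 0 in both breeds. The sums were 83.2 and 114 FPKM for 14 endothelial markers, none called (3 at an unadjusted p-value under 0.05) and PLVAP listed at 0, and 2302 and 3010 FPKM for 13 leukocyte markers, 3 called. The leukocyte sums were mostly CD74 (2138 and 2734 FPKM, not called), whose row shares its locus with MYOZ3 and is therefore uncertain, and were 164 and 276 FPKM without it. The sums were 148 and 520.3 FPKM for 9 adipocyte markers, 6 called, and 122 and 129.5 FPKM for 4 nerve markers, 1 called, all higher in Ross 708. The fat cell genes FABP4, a fatty acid binding protein (86.7 and 319.8 FPKM), and PLIN1, a coat protein of lipid droplets (0.844 and 22.4 FPKM), were among these calls. The nerve sums were mostly PMP22 (84.1 and 74.5 FPKM, not called) and were 38.3 and 55.1 FPKM without it. Of the 10 erythroid markers 4 had a row, none tested, and 3 of these were listed at 0 in both breeds. The part of these cells in the higher TPM2, TNNT2 and TNNI1 levels was not tested.

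TNNT2, TNNI1 and TPM2 appear in the authors' own enrichment sheets. Those sheets were drawn from genes called in the same data, so the presence of these 3 rests on their calls and is no separate support. Of 1095 biological process terms in the authors' deposited sheet named as down in Ross, 97 held at least 1 of them, TNNT2 in 92, TNNI1 in 60 and TPM2 in 18. That sheet is read here as one of genes higher in Ross 708, since 270 of its 271 genes were called in that direction. Of these 97 terms, 70 had a Benjamini-adjusted p at or under 0.05 in the authors' deposited table; cardiac muscle contraction (0.0768) and striated muscle contraction (0.247) did not. The term muscle contraction counted 17 genes at a fold enrichment of 3.22 in the authors' deposited table (Benjamini-adjusted p = 0.00181). The authors' deposited table gave muscle filament sliding 5 genes and a fold enrichment of 8.12 (Benjamini-adjusted p = 0.0382). All 3 isoforms were in both terms. The sheet of pathways placed TNNT2 and TPM2 in hypertrophic cardiomyopathy (9 genes, fold enrichment 5.35, adjusted p = 0.00685 in the authors' deposited table) and in dilated cardiomyopathy. The authors' deposited table of 254 terms for genes higher in Isfahani held none of the 10 isoforms, as none of them was called in that direction.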

How the data were processed

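Breast muscle RNA was extracted with Trizol, pooled in equal amounts from 3 birds, made into 4 libraries with a TruSeq kit and sequenced as 150-base paired reads, per the labels' protocols. The submitters' processing notes name the galGal5 build and, as tools, Cufflinks 2.2.1, HISAT2, Trimmomatic and FastQC 0.11.5. Annotation, library scaling and dispersion model were not given in the sources used here. Cuffdiff's column layout is that of the deposited expression table, per the file headers. It gives 1 FPKM value per breed, the log2 fold change, a test statistic (a score), a p-value and a q-value for each row, all by the authors. A Benjamini-Hochberg adjustment of the 11626 tested p-values gives the deposited q-values, with differences up to 5.22e-07. The enrichment sheets hold term counts, fold enrichment as a ratio and adjusted p-values by the authors, from a tool that no source used here names.

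With 1 value per breed no test of its own was possible, so the second option of the design was used, the authors' deposited q-value at or under 0.05. Added here were the log2 ratio with a pseudocount of 1 FPKM, counts and medians of 14 gene lists (239 of 299 symbols, members included, had a row), shares and alternatives, in Python 3.11.15 with pandas 2.3.3 and SciPy 1.17.1. The Benjamini-Hochberg step was tested on simulated data. Of a symbol on several tested rows, the most abundant was used. All isoforms are named. Of each list up to 6 called genes with the largest ratios are named by rule, except in the marker lists of cells outside muscle fibres. Of those lists only some of the genes under the rule are named. Others named without a call were chosen after their values were seen. The isoforms and lists were chosen with earlier results of these data known. RefSeq names (GRCg7b) matched all 10 symbols and were used for names alone. Promoter and protein sequences were not analysed here. Rows overlap where genes are close, and the use of strand is not stated. The depth behind a value is unknown. As the dispersion model was not given, it is not known whether the p-values cover the spread between pools. That spread may itself be technical.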

Additional observations from a re-analysis of the deposited data

How the results depend on the processing

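The ratios of the 6 tested isoforms kept their direction in all 30 recomputations, under 2 other pseudocount settings, 2 rescalings and median centring. A change of pseudocount cannot reverse a ratio, and median centring and the rescaling without HIDATA and FAIL rows both raised Ross 708. Only the rescaling of all rows to 1 common sum could have reversed a positive ratio. It took the log2 ratio of TNNC1 from 0.14 to 0.0077. The count of 3 isoforms called higher in Ross 708 was 2 at a q-value threshold of 0.01, where 1.74% of tested rows were called in that direction. It was also 2 when the deposited test statistic was read as a normal score, an alternative chosen after seeing the data (0.907% of rows called). TNNI1 dropped out both times. The count stayed at 3 at a threshold of 0.1, with a log2 ratio of at least 1 and when rows under 1 FPKM in either breed were dropped. The looser threshold could not remove a call, and the 3 called ratios were already above 1. The count higher in Isfahani was 0 in each and could not be otherwise, as all 6 ratios were above 0. The median log2 ratio of the isoforms was 1.22 with a pseudocount of 0.1 or none, 0.92 after rescaling all rows to 1 common sum, and 0.72 to 1.36 without each isoform in turn. That rescaling, which lowers Ross 708 by 0.13 on the log2 scale because HIDATA rows are listed at 0 in Isfahani, also moved the thin filament median to 0.083 and the slow and cardiac-type median to 0.56. At a q-value threshold of 0.01 the counts of calls higher in Ross 708 fell from 8 to 4 for fibroblast markers and from 2 to 1 for fast fibre genes. No paired analysis was possible because the table holds 1 value per breed; for the same reason no library could be left out. The alternative with TNNT1 and TNNI3 was not run, since neither symbol has a row.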

Other observations

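Slow and cardiac-type genes with large ratios were not always called. CSRP3, a muscle LIM protein chosen after its values were seen, was at 0.119 FPKM for Isfahani and 5.16 FPKM for Ross 708. Its log2 ratio of 2.46 was above that of TNNT2, and its q-value in the authors' deposited table was 0.39.

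The deposited p-values were smaller than the two-sided normal tail of the deposited test statistics for 98.1% of the tested rows that have a statistic. For TPM4 the p-value in the authors' deposited table was 0.0108, against a normal tail of 0.0671. Read as normal scores, the statistics gave 150 calls after Benjamini-Hochberg adjustment, where the authors' deposited table holds 606; TNNT2 and TPM2 were among the 150, with adjusted p-values of 1.5e-05 and 0.00761.

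The names of 2 enrichment sheets run against the expression table. The sheets named as down in Ross hold TNNT2, TNNI1 and TPM2. Of the 271 genes in the sheet of biological process terms, 270 were called higher in Ross 708 in the authors' deposited table and 0 lower.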
